A study of Mus musculus with 2 samples.

Results

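Fragments of ribosomal protein mRNAs were counted in small RNA libraries from CD11c+ cells of the mouse spleen. Counted as distinct sequences, they held nearly the same share of mRNA fragments in both cell populations, while by reads the shares lay further apart. With each start position counted once, the order of the shares was reversed. The members are the protein-coding genes whose symbol is Rpl or Rps followed by a digit, or Rplp0, Rplp1, Rplp2 or Rpsa, without the Rps6k kinases. This gave 92 gene symbols, among 11780 protein-coding genes that had a fragment. A fragment is 1 distinct sequence (tag) of 20 to 30 nt that is identical, in sense, to annotated transcripts of exactly 1 protein-coding gene. The cells came from spleen of strain C57BL/6J, were enriched on CD11c beads and were sorted on surface Ia, the MHC class II molecule, into Ia_high and Ia_low cells with a stated purity above 95%. The labels name both populations dendritic cells and give no treatment, age or number of mice. Each population is represented by 1 library, so no difference below has a replicate check, and every interval covers counting error only.

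Ribosomal proteins build the large and the small subunit of the cytoplasmic ribosome around ribosomal RNA, and nearly every one is made from a single active gene. Their mRNAs are short, among the most abundant in most cells, and begin with a run of pyrimidines, the 5' terminal oligopyrimidine motif, through which mTOR and Larp1 control their translation. Their abundance has also left many processed pseudogenes in the genome, so a short tag from a ribosomal protein mRNA often matches a pseudogene as well. Several of the genes carry snoRNAs in their introns.

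The tag with the most reads of any ribosomal protein gene came from Rps6, the small subunit protein that S6 kinases phosphorylate downstream of mTOR. The family around it is shown because it carried most of the Rps6 reads in each library. It lies in exon 4 on the minus strand of chromosome 4 in GRCm38, and its longest member covers chr4:86855931-86855958. The capitals mark the 23 bases shared by the 5 most abundant members, whose reads are given in the next paragraph in the same order.
Rps6 of 27 nt: taAAAGGGCTAGTAGAATCCGCAAGct
Rps6 of 28 nt: taAAAGGGCTAGTAGAATCCGCAAGctt
Rps6 of 25 nt, 5' end trimmed: AAAGGGCTAGTAGAATCCGCAAGct
Rps6 of 26 nt: aAAAGGGCTAGTAGAATCCGCAAGct
Rps6 of 25 nt, 3' end trimmed: taAAAGGGCTAGTAGAATCCGCAAG

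The tag of 27 nt begins at base 405 of the coding sequence, counted from the A of the start codon, in codon 135. Its reads numbered 967 in Ia_high and 503 in Ia_low. The other members had 244 and 170, 240 and 107, 181 and 126, and 153 and 110 reads, in the order shown. They run at most 2 bases past the shared bases at the 5' end and at most 3 at the 3' end. With starts and ends allowed to shift by up to 3 nt, the family held 30 tags, which made up 53.4% of Rps6 reads in Ia_high and 52.8% in Ia_low. The same place therefore led the gene in both libraries and by the same share.

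**Figure D1:**
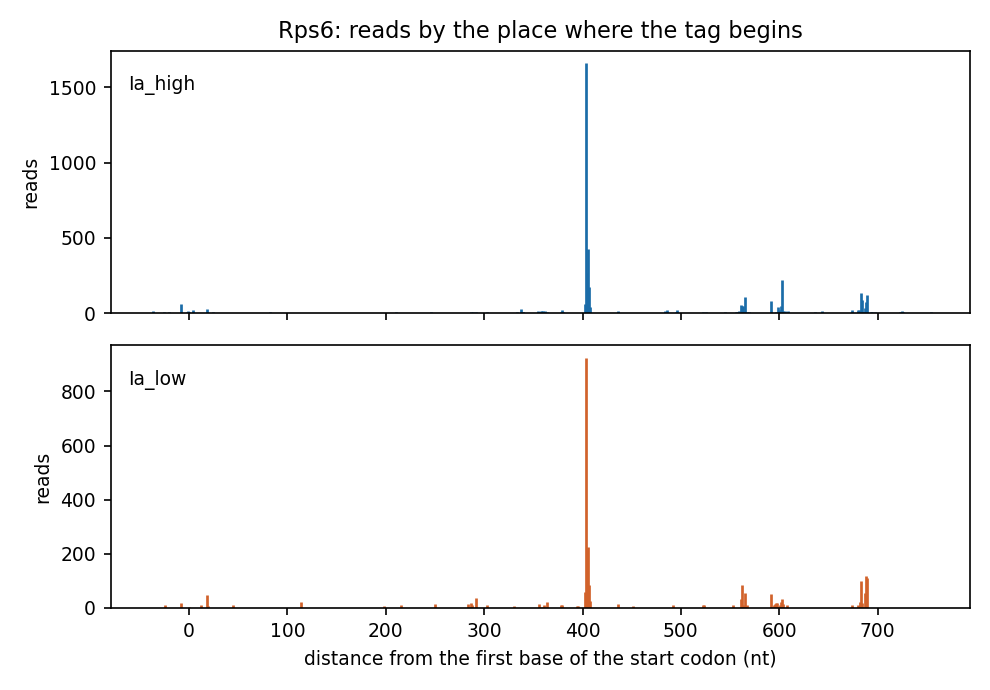
Reads of Rps6 tags by the distance of their first base from the first base of the start codon (horizontal axis, nt), in Ia_high (upper panel) and Ia_low (lower panel, with its own reads axis). Each line is 1 start position. The single start at base 405 held 1659 reads in Ia_high and 924 in Ia_low, 36.03% and 33.4% of the reads placed on the gene.

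The most abundant tags of 4 further genes are shown because, with Rps6, these genes are among those with the leading single tags by share of ribosomal protein reads, summed over both libraries. Rpl26 sits near the mouth of the peptide exit tunnel, Rpl4 reaches into that tunnel, and Rpl13 and Rpl21 are other proteins of the large subunit.
Rpl26: ttcggaggaagatcatgtctt
Rpl21: atggaaaagagcctgagctgttggagccca
Rpl4: atgagaaaccgacggcggatc
Rpl13: acaaggattggcagcagcgagtggacact

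The Rpl26 tag, at chr11:68902348-68902368 on the plus strand in exon 2, was read 250 times in Ia_high and 125 times in Ia_low. The Rpl21 tag, at chr5:146835901-146835930 on the plus strand in exon 6, had 133 and 181 reads. The Rpl4 tag, at chr9:64176980-64177000 on the plus strand in exon 6, had 303 and 79 reads. As shares of all ribosomal protein reads, these were 0.341% and 0.288% for Rpl26, 0.182% and 0.417% for Rpl21, and 0.414% and 0.182% for Rpl4, so single tags moved in opposite directions between the libraries. The Rpl13 tag, at chr8:123102702-123102730 on the plus strand in exon 2, had 226 and 97 reads. The Rpl21, Rpl26 and Rpl13 tags also match 7, 5 and 10 annotated pseudogenes, the Rps6 tag matches 1, and the Rpl4 tag matches none.

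The Ia_high library held 16388303 reads of 1185709 tags and the Ia_low library 13739811 reads of 758783 tags. Tags unique to 1 protein-coding gene numbered 339412 in Ia_high and 139588 in Ia_low, and these totals scale all fragment counts. The marker genes differed between the libraries, with ratios given here for scaled fragments of Ia_low over Ia_high. Of 8 dendritic cell markers tested, 6 were at least 2-fold lower with a counting interval that excludes 1, beside 9.49% of all genes tested. The list summed to 4762 and 1039 fragments (ratio 0.531). Of 6 monocyte markers tested, 5 were higher by the same rule, beside 6.27% of all genes (1551 and 1560 fragments, ratio 2.45). The lower dendritic cell markers include the class II genes H2-Aa (972 and 189 fragments), H2-Ab1 (922 and 185) and H2-Eb1 (689 and 116). The cells were sorted on the class II molecule, so the sort favours these differences and nothing is read from them about cell type. All 8 dendritic cell markers had fragments in both libraries, with Flt3 at 163 in Ia_high and 6 in Ia_low and Zbtb46 at 56 and 1. The T cell list summed to 226 and 2 fragments, from Cd4 (115 and 1), Cd8a (79 and 1) and Tcf7 (32 and 0). Cd3e and Cd3d were at 0 in both libraries, so these fragments are not assigned to T cells. Macrophage markers summed to 319 and 86 fragments (ratio 0.656, interval 0.510 to 0.834), but Adgre1 went the other way (103 and 70, ratio 1.65). Plasma cell markers summed to 98 and 93 (ratio 2.31, 1.72 to 3.10). Neutrophil markers summed to 28 and 48 (ratio 4.17, 2.56 to 6.90), mostly from Csf3r (23 and 44). B cell markers summed to 30 and 6 (ratio 0.486, 0.165 to 1.19), erythroid markers to 7 and 0 and NK cell markers to 2 and 4. The part of other cell types in the ribosomal protein values was not tested.

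Ribosomal protein fragments numbered 7789 in Ia_high and 2996 in Ia_low. They made up 2.29% of mRNA fragments in Ia_high (exact 95% binomial interval 2.24% to 2.35%) and 2.15% in Ia_low (2.07% to 2.22%). The shares lay close together, although their counting intervals did not overlap. With each start position counted once, they were 1.81% in Ia_high and 1.95% in Ia_low, in the reverse order. By reads the gap was wider: ribosomal protein tags held 73210 reads in Ia_high, 3.32% of mRNA reads, and 43366 reads in Ia_low, 2.49%. A ribosomal protein tag was read 9.40 times on average in Ia_high and 14.5 times in Ia_low, against 6.42 and 12.4 times for tags of other genes. Fewer cells of a type and less RNA per cell cannot be told apart in such bulk libraries.

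Of the 92 symbols, 90 had at least 1 matching tag, 82 had a fragment, and 78 had a fragment in both libraries. The minimum of 10 fragments in both libraries together was passed by 77 genes, and 64 had 50 or more. Rpl3l, Rps12, Rps19bp1, Rps27 and Rps27l had 1 to 9 fragments. Another 10 symbols had none, and 8 of these had only tags shared with another protein-coding gene: Rpl35, Rps27rt, Rpl36-ps4, Rpl36a-ps1, Rpl9-ps1, Rpl9-ps6, Rpl10-ps3 and Rps12-ps3. Rpl10l and Rpl39l had no matching tag. The symbol rule also took in 6 genes named as pseudogenes and Rps19bp1, a binding protein of Rps19 that is not itself a ribosomal protein. Several low values thus count only a small part of a gene's tags: 487 of 536 tags of Rps18 and 115 of 122 tags of Rps27 matched another protein-coding gene. Tags shared in this way numbered 2128 in Ia_high and 1169 in Ia_low over the family and enter no gene's value, nor do 653 and 422 tags that also match a non-coding gene.

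No ribosomal protein gene was called in either direction. A gene was called when its scaled fragments differed at least 2-fold and the exact 95% counting interval of the ratio of Ia_low over Ia_high excluded 1. Of the 77 genes, 0 were higher and 0 were lower in Ia_low, beside 6.27% of all 7071 protein-coding genes called higher and 9.49% called lower. No test was possible with 1 library a group, and so no p-value is given. The median log2 ratio was −0.15 over the 77 genes and −0.13 over all genes tested. The quartiles of the ribosomal protein genes were −0.34 and 0.06, and those of all genes −0.77 and 0.41. Within 2-fold of an equal level lay 75 of the 77 genes (97.4%), beside 71.2% of all genes. Among genes with 50 fragments or more, all 64 ribosomal protein genes did, beside 80.5% of all 2578 genes, of which 8.46% were called higher and 10.9% lower. Since the counting error falls with abundance, this narrow spread is given as a description and not as a property of the family.

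**Figure D2:**
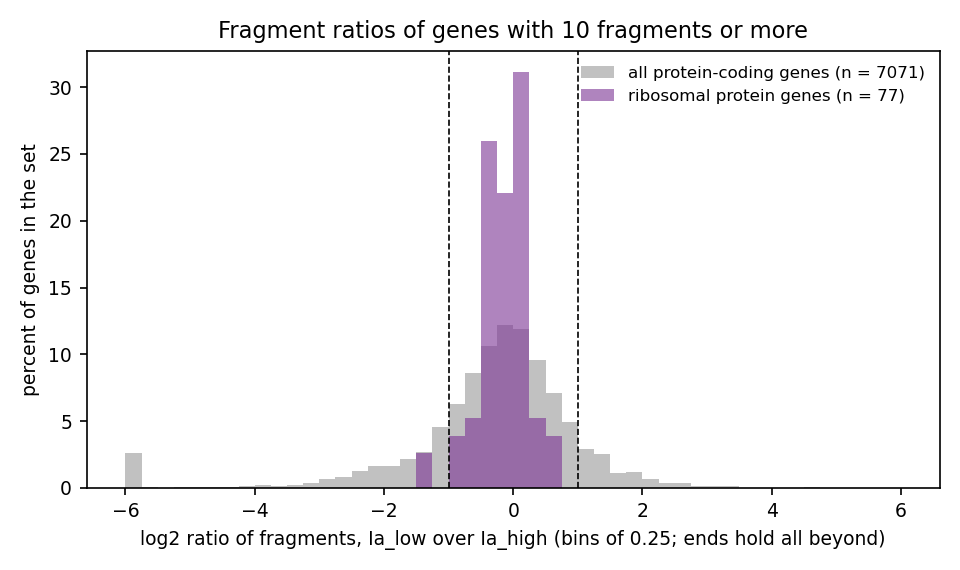
Percent of genes (vertical axis) by log2 ratio of scaled fragments, Ia_low over Ia_high (horizontal axis, bins of 0.25), for the 77 ribosomal protein genes and all 7071 protein-coding genes with 10 fragments or more. Dashed lines mark 2-fold, and genes with no fragment in Ia_low stand in the leftmost bar. The ribosomal protein genes stay between −1.46 and 0.61, near the middle of the wider distribution.

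By reads in place of fragments, 66 of the 77 genes had a ratio below 1 and 11 above it, beside 3969 and 3102 of all 7071 genes. The median log2 ratio by reads was −0.40 beside −0.10 for all genes. With each start position counted once, the median was 0.04 beside −0.12 for all genes. The direction of the small shift differed with the measure, and none is given here for the family. Both subunits gave the same picture. Large subunit genes (48 tested, median log2 ratio −0.15) held 57.7% of the ribosomal protein fragments in Ia_high and 58.3% in Ia_low, and small subunit genes (29 tested, median −0.13) held 42.3% and 41.7%.

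The order of the genes by level was shared. Over the 77 genes, fragments per kilobase of annotated transcript and per 1000000 mRNA fragments had a Spearman correlation of 0.94 between the libraries, which share transcript lengths and the same matching rule. Rps29, a small zinc-binding protein of the small subunit, was first in both libraries, at 1171 in Ia_high and 1249 in Ia_low on this scale (155 and 68 fragments). Rps9, which lies near the mRNA entry of the small subunit, stood at 887 and 1040 (226 and 109 fragments). Rpl38, whose loss causes the skeletal defects of Tail-short mice, stood at 801 and 925 (99 and 47 fragments), and Rps6 at 849 and 857 (253 and 105 fragments). By fragments, the counting intervals of these ratios all included 1: 0.790 to 1.43 for Rps29, 0.924 to 1.48 for Rps9, 0.798 to 1.65 for Rpl38 and 0.796 to 1.27 for Rps6. By reads the ratio was 0.560 for Rps29 and 0.761 for Rps6, so their equal level holds for fragments only. Without tags that match a pseudogene the fragment ratio of Rps6 was 0.372. That value leaves out 94.9% of the Rps6 tags and rests on few. The order of these genes cannot be read closely, as each level rests on 47 to 253 fragments.

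The next genes by level were Rpl13, Rpl26, Rps25, Rps21 and Rpl37a. Rpl13 stood at 710 in Ia_high and 827 in Ia_low, Rpl26 at 700 and 708, and Rps21 at 680 and 582 fragments per kilobase on that scale. Rps25, which several viral entry sites need to start translation, stood at 633 in both, from 124 and 51 fragments. This leaves out 299 of its 459 matching tags, which are shared with another protein-coding gene. By fragments none of these 5 differed 2-fold, with ratios from 0.855 for Rps21 to 1.53 for Rpl37a. By reads the ratio of Rps25 was 0.653 in place of an equal level, and it moved from 1.01 to 0.641 for Rpl26 and from 1.16 to 0.792 for Rpl13. Without pseudogene matches the fragment ratio of Rpl13 was 0.417, a value that leaves out 85.5% of its tags. Levels also depend on the annotated length. The transcripts used for Rps15a (5130 nt) and Rps20 (3706 nt) carry 3' UTRs of 4722 and 3167 nt. Their levels of 63.2 and 102 in Ia_high divide 110 and 128 fragments by the transcript lengths.

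**Figure D3:**
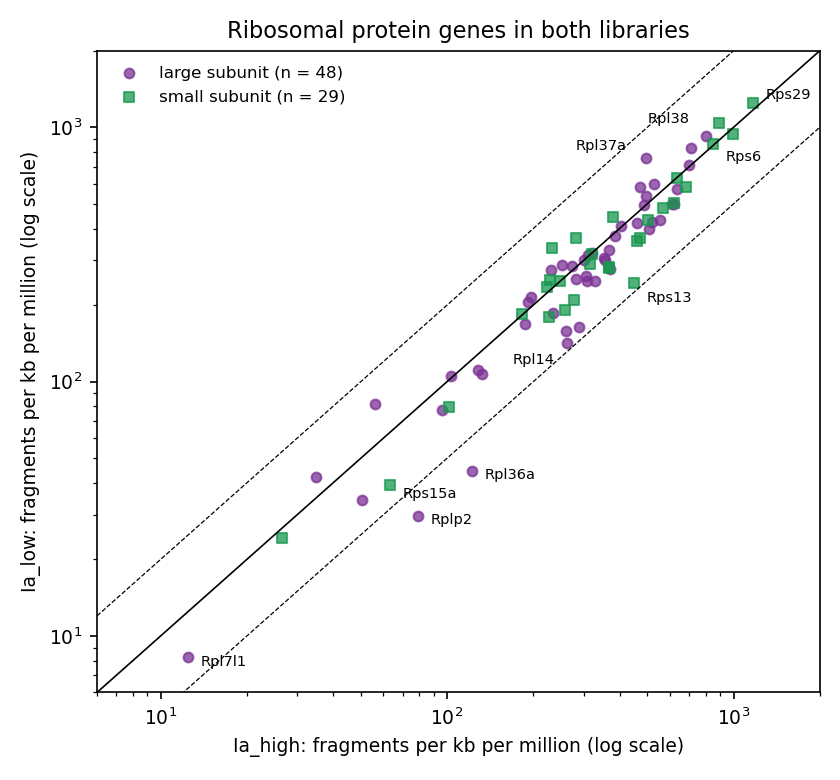
Fragments per kilobase of annotated transcript per 1000000 mRNA fragments in Ia_high (horizontal, log scale) and Ia_low (vertical, log scale) for the 77 ribosomal protein genes with 10 fragments or more, 48 of the large and 29 of the small subunit. The solid line marks equal levels and the dashed lines 2-fold. Rps29 is highest in both libraries, and Rpl36a and Rplp2 lie beyond the lower dashed line with 3 and 4 fragments in Ia_low.

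Among genes with 50 fragments or more, Rpl14 and Rps13 stood at the low end of the ratios. Each had 90 fragments in Ia_high and 20 in Ia_low, a ratio of 0.540 with an interval of 0.315 to 0.885 that excludes 1, short of the 2-fold rule. Rps15a had 110 and 28 fragments (ratio 0.619, interval 0.393 to 0.944), and Rpl27 had 60 and 14 (0.567, 0.293 to 1.03). Rps24, one of the genes mutated in Diamond-Blackfan anemia, had 141 and 43 fragments (0.742, 0.514 to 1.05). By reads these 5 genes were lower as well, at ratios of 0.450 for Rpl14, 0.640 for Rps13, 0.445 for Rps15a, 0.530 for Rpl27 and 0.498 for Rps24. By that measure 66 of the 77 genes lay below 1, so this is not a separate check. With only protein_coding transcripts used, Rps13 passed the rule at 0.483, and with tags that match no pseudogene it stood at 0.879. The latter value leaves out 86.4% of the Rps13 tags.

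At the high end of the same genes stood Rpl37a, a zinc finger protein of the large subunit, with 94 fragments in Ia_high and 59 in Ia_low. Its ratio of 1.53 (interval 1.08 to 2.14) is the single one above 1 whose interval excludes 1. By reads the ratio of Rpl37a was 1.16, and without tags that match a pseudogene it was 1.10. Rps14, whose deletion underlies the anemia of a human myelodysplastic syndrome, had 47 and 28 fragments (1.45, 0.874 to 2.36). Rpl11, which with Rpl5 can bind and inhibit Mdm2, had 65 and 32 (1.20, 0.758 to 1.86), and the ratio of Rps9 was 1.17. Rpl7a had 146 and 74 fragments (1.23, 0.919 to 1.64), but 0.961 when only protein_coding transcripts were used and 1.78 when tags that match a pseudogene were left out. In all, 4 of the 77 intervals excluded 1, those of Rpl14, Rps13, Rps15a and Rpl37a, beside 1509 of the 7071 over all genes.

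The acidic stalk, which recruits elongation factors to the large subunit, is built by Rplp0, Rplp1 and Rplp2. Rplp0, which anchors it, had 212 fragments in Ia_high and 80 in Ia_low, a ratio of 0.918 (0.700 to 1.19). Rplp1 had 44 and 11 (0.608, 0.283 to 1.20) and Rplp2 had 26 and 4 (0.374, 0.095 to 1.08). The ratios of both acidic proteins lay below 1, with wide intervals that include 1, and by reads they were 0.326 and 0.319. These values leave out 49 of 95 Rplp1 tags and 65 of 109 Rplp2 tags, which are shared with another protein-coding gene. Of the Rplp2 tags counted, 41.4% matched no protein_coding transcript. Rpsa, the small subunit protein also known as the laminin receptor, had 99 and 41 fragments (1.01, 0.682 to 1.46). Rack1, a scaffold on the head of the small subunit that the symbol rule does not include, had 216 and 101 (1.14, 0.889 to 1.45).

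Counts of paralogs are given beside those of their better known partners, and shared tags limit the comparison in several pairs. Rpl3, which lines the peptidyl transferase centre, had 168 fragments in Ia_high and 62 in Ia_low, while its muscle paralog Rpl3l had 0 and 3. Rpl22, needed for alpha beta T cell development, had 65 and 27, and Rpl22l1 had 35 and 13. Rpl7 had 196 and 87 and Rpl7l1, an assembly factor for the large subunit, 11 and 3. Per kilobase this is 497 in Ia_high for Rpl7 against 12.4 for Rpl7l1, and 404 for Rpl22 against 187 for Rpl22l1. The value of Rpl7l1 leaves out 90 of its 104 matching tags, which are shared with another protein-coding gene, while Rpl7 lost 3 of 245. Rpl39 had 105 and 34 fragments and its testis paralog Rpl39l none. Rps27l had 7 and 1 beside 7 and 0 for Rps27, but most Rps27 tags are shared, as given above, and were not counted. Rpl36a, with 174 of 196 tags shared, had 20 and 3 fragments (0.365, 0.069 to 1.23) and Rpl36al 10 and 6 (1.46, 0.436 to 4.43). Rpl10, which joins the large subunit late in its assembly, had 36 and 12, again with 242 of its 295 tags shared, and its testis paralog Rpl10l had none. X-linked Rps4x had 74 and 32 fragments (1.05, 0.672 to 1.61), and Rps4l was not analysed here.

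Lists of genes related to ribosomal proteins by control or function are read here against the 6.27% called higher and 9.49% called lower over all genes. Of 20 other genes known for oligopyrimidine mRNAs, 0 were higher and 1 was lower, Nap1l1, a histone chaperone (154 and 27 fragments, ratio 0.426, 0.272 to 0.645), with a median log2 ratio of −0.03. The elongation factor Eef1a1 had 846 and 354 fragments (1.02), Eef2 417 and 184 (1.07), the poly(A)-binding protein Pabpc1 381 and 167 (1.07) and Tpt1 308 and 143 (1.13). Among ribosomal proteins made as fusions to ubiquitin or a ubiquitin-like protein, Fau had 112 and 50 fragments and Rps27a 123 and 43, neither of them called. Gas5 of the list is not protein-coding and was not counted.

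Of 13 regulators of ribosomal protein synthesis 12 were tested and 0 were called, with a median of −0.14. Larp1, which binds the oligopyrimidine start, had 119 and 48 fragments (0.981, 0.686 to 1.38), Larp4 90 and 34, the cap-binding protein Eif4e 81 and 21 (0.630, 0.370 to 1.03) and its inhibitor Eif4ebp2 96 and 41. Of 22 ribosome assembly factors 15 were tested, with a median of −0.10. Nop56, a core protein of C/D box snoRNPs whose gene itself hosts snoRNAs, was the single one called higher, at 42 and 37 fragments (2.14, 1.34 to 3.41). Ncl, the nucleolar protein nucleolin, had 195 and 71 (0.885), the polymerase I factor Ubtf 53 and 22 (1.01) and Pes1 39 and 10 (0.623). For the mitochondrial ribosome, 38 of 78 protein genes reached 10 fragments, with a median of −0.30, of which Mrpl40 was called higher (4 and 7 fragments) and Mrpl13 and Mrpl48 were called lower (11 and 0, and 12 and 0). The best covered, Mrpl24, had 23 and 10 fragments, Mrpl3 had 23 and 6, Mrpl37 14 and 7, and Mrps15 15 and 6. The called members named here were picked after their values were seen.

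Most fragments came from coding sequence. Of the 9389 tags, 8842 matched the reference transcript of their gene and 8841 at 1 place. Of those placed, 86.9% in Ia_high and 87.5% in Ia_low had their middle in the coding sequence, 9.23% and 8.26% in the 3' UTR and 3.90% and 4.26% in the 5' UTR, while the coding sequence made up 55.9% of the transcripts' length. For other genes the coding share was 60.6% and 60.1%, with 52.1% of the length. Without tags that match a pseudogene the coding share of ribosomal protein fragments was 57.4% and 60.1%. In the 61 genes with 50 placed tags or more, the median coding share was 91.5% and 93.1%, and it exceeded the coding share of the transcript in 59 and 55 of them.

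The size of this excess depends on 2 features of the reference. First, most coding places of these genes also match a pseudogene: windows of 25 bases that the matching rule can use and that are free of a pseudogene match made up 17.4% of all coding windows but 92.2% of all 3' UTR windows. With both tags and windows limited to those free of pseudogene matches, the density of fragments was still 5.36 times higher in coding sequence than in 3' UTR in Ia_high and 6.48 times in Ia_low, beside 5.56 and 6.25 times over all usable windows. Second, a few annotated 3' UTRs are far longer than the rest. In the 65 genes with an annotated 3' UTR of 300 nt or less, the excess of coding sequence over 3' UTR was 1.51 times in Ia_high and 1.87 times in Ia_low, with 17.7 against 11.8 fragments per 100 usable windows in Ia_high and 6.99 against 3.74 in Ia_low. In the same 65 genes the 5' UTR had 3.0 and 1.28 fragments per 100 windows, so that coding sequence was 5.91 and 5.47 times denser than the annotated 5' UTR. Whether these transcripts are the ones used in these cells was not tested.

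**Figure D4:**
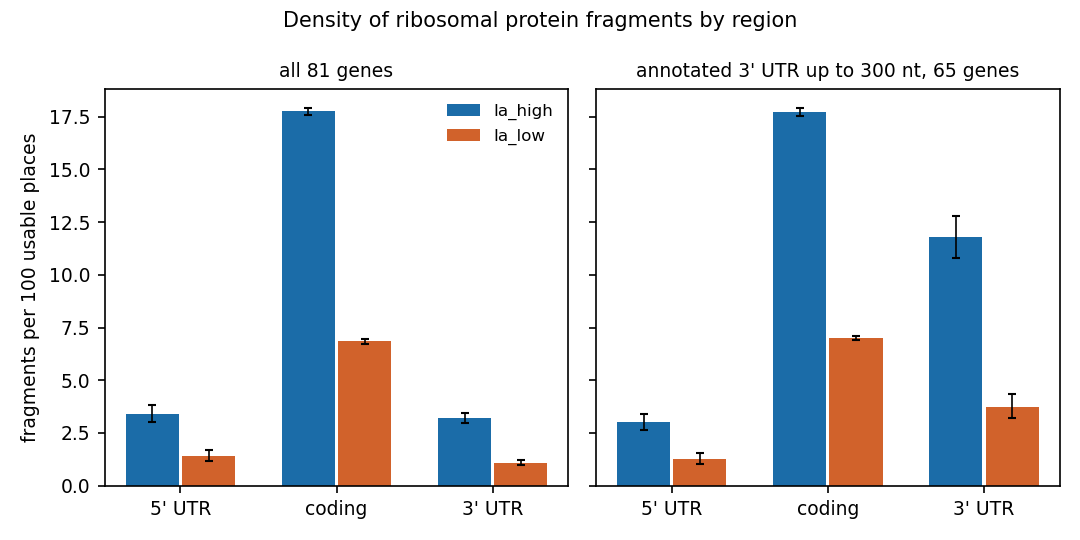
Fragments per 100 usable 25-base windows (vertical axis) in the 5' UTR, coding sequence and 3' UTR, for all 81 ribosomal protein genes with placed tags (left) and the 65 with an annotated 3' UTR of 300 nt or less (right), in Ia_high and Ia_low. Error bars are exact 95% binomial intervals of the regions' shares, scaled to the density. The 3' UTR bar in Ia_high rises from 3.20 to 11.8 when long annotated 3' UTRs are left out, while the coding bar stays at 17.8 and 17.7.

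Individual genes departed from the coding bias. Rps28 had 44.4% of its placed fragments in coding sequence in Ia_high and 41.2% in Ia_low, the lowest of the 61 genes, and Rps25 had 59.6% and 48.9%. For Rps25, 299 of 459 matching tags are shared with another protein-coding gene and were left out. Their part in its low coding share was not tested. At the other end, the fragments of Rpl8, Rpl6, Rpl15, Rpl23a, Rpl7a and Rps7 placed on the reference transcript lay in coding sequence in both libraries (100%). Fragments that hold the whole stop codon made up 5.15% of those placed in Ia_high and 6.13% in Ia_low, and those that hold the start codon 2.20% and 2.62%, against 1.44% and 0.919% for other genes in Ia_high, whose transcripts are longer. The tags shown next hold a codon at the edge of the coding sequence, in capitals, and were among the most abundant to do so.
Rps21 start codon: aggATGcagaacgacgccggcgagttt
Rpl27a start codon: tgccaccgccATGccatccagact
Rps29 stop codon: attaagttggacTAAgcgacct
Rpl39 stop codon: gaagctgggtctgTAAggatt

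The Rps21 tag, at chr2:180257631-180257657 on the plus strand, was read 52 times in Ia_high and 11 times in Ia_low. The Rpl27a tag crosses the junction of exons 1 and 2 (chr7:109519210-109519595, plus strand, with the intron between) and had 0 and 34 reads. It therefore matches spliced mRNA, as does the Rps29 tag, which crosses from exon 2 to exon 3 (chr12:69157806-69158666, minus strand) and had 224 and 24 reads. The Rpl39 tag, at chrX:37082696-37082716 on the minus strand in exon 3, had 80 and 56 reads.

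Tags showed no strong reading frame. Within coding sequence, 35.2% of fragments in Ia_high began at codon position 1, 34.0% at position 2 and 30.9% at position 3, and 34.3%, 35.1% and 30.7% in Ia_low. Other genes gave 35.7%, 33.6% and 30.6% in Ia_high. All of these lie within a few percentage points of an even split. At their ends the fragments were uneven in base. C was the first base of 11.1% of fragments in Ia_high and 10.04% in Ia_low, G stood just before the first base in 11.4% and 9.82%, and C was the last base in 36.7% and 39.1%, where these transcripts hold 24.1% C and 26.4% G. For other genes the same 3 shares were 9.39%, 8.83% and 37.6% in Ia_high.

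Lengths differed more between the libraries than between ribosomal protein genes and the rest. Fragments of 20 to 24 nt made up 47.3% of ribosomal protein fragments in Ia_high (46.2% to 48.4%) and 35.0% in Ia_low (33.3% to 36.8%). For other genes the shares were 49.0% and 35.96%. The median length was 25 nt in Ia_high and 26 nt in Ia_low for both sets of genes. Among tags of 20 to 24 nt alone, 3 ribosomal protein genes were called lower in Ia_low, Rps13, Rps15a and Rps24, and among tags of 25 to 30 nt 1 was, Rpl27. These are 3 of 71 and 1 of 73 genes, beside 6.52% and 8.77% of all genes called lower in the same settings.

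**Figure D5:**
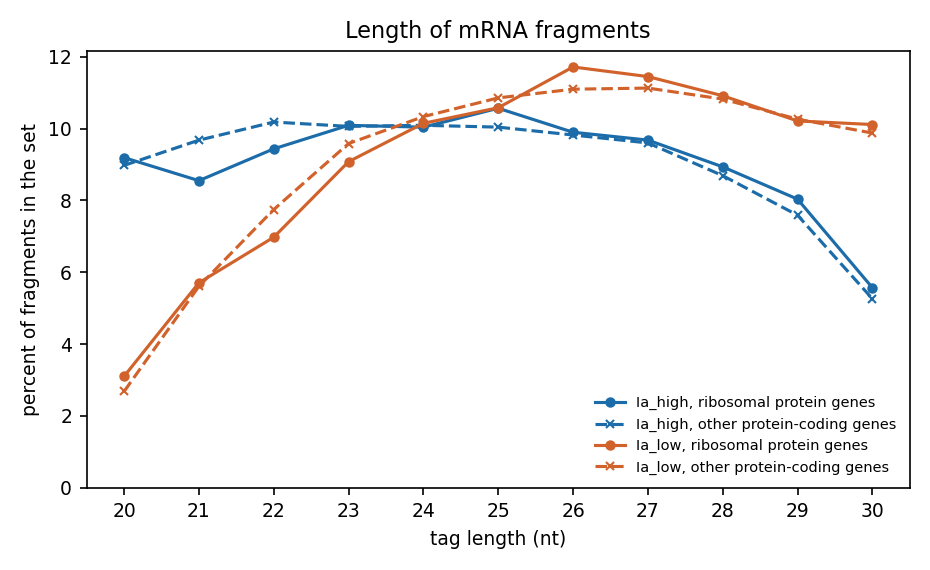
Percent of fragments (vertical axis) by tag length in nt (horizontal axis) for ribosomal protein genes (solid) and other protein-coding genes (dashed) in Ia_high and Ia_low. The libraries part at the short end, with 47.3% of ribosomal protein fragments at 20 to 24 nt in Ia_high and 35.0% in Ia_low, while both sets of genes run together within a library.

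The libraries shared start positions more often than exact tags. Ribosomal protein tags began at 4293 places in Ia_high and 2008 in Ia_low, of which 1343 were the same, 31.3% of the Ia_high and 66.9% of the Ia_low places. For other genes the shares were 14.2% and 32.8%, at a lower number of fragments per gene. Exact tags found in both libraries numbered 1355, 18.4% of the placed Ia_high and 48.0% of the placed Ia_low tags, against 8.16% and 19.99% for other genes. Reads were spread over many tags: the 10 most abundant held 4.34% of ribosomal protein reads in Ia_high and 4.62% in Ia_low, and the 100 most abundant 16.1% and 17.7%. Per gene the leading start position held a median of 14.0% and 16.8% of the reads over 61 genes. Rps6 led in Ia_high at 36.03%, and Rps13 led in Ia_low at 49.4%, where it had few fragments. Leading starts were also seen in Rpl13 at base 44 of the coding sequence (23.5% and 20.5% of its reads), in Rpl8 at base 122 (28.0% and 24.7%) and in Rpl37 at base 174 (28.1% and 41.4%).

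Single tags could differ more strongly than their genes. Of 42 tags with 100 reads or more in either library, 25 had a share of ribosomal protein reads within 2-fold, 15 were lower and 2 higher in Ia_low. The minimum is in raw reads, and Ia_high holds more of them, so the minimum favours tags that are high there, and nothing is read from this split. The tags shown here are the 3 lowest. In Rps29 the capitals mark the stop codon.
Rps25: agccgtggtctctgagagactg
Rps29: ttaagttggacTAAgcgacct
Rpl21 of 29 nt: atggaaaagagcctgagctgttggagccc

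The Rps25 tag of 22 nt, at chr9:44408796-44408817 on the plus strand, had 293 reads in Ia_high and 0 in Ia_low. Rps25 as a whole had equal scaled fragments in both, but a ratio of 0.653 by reads. By reads the ratio was 0.560 for Rps29 and 0.702 for Rpl21. The Rps29 tag of 21 nt, 1 base shorter at its 5' end than the stop codon tag shown above, had 196 and 0 reads. The Rpl21 tag of 29 nt had 108 and 2 reads, while the tag of 30 nt with the same start had 133 and 181. The 29-nt tag was thus nearly absent from Ia_low while a tag 1 base longer was not. These tags were chosen for their difference, which is therefore a description. The longer tags of Ia_low are given above beside the length shares, and their part in these differences was not tested.

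A small part of the tags lay outside protein_coding transcripts. Of the 9389 tags, 370 in 54 genes matched no protein_coding transcript of their gene but other annotated forms such as retained introns. They made up 3.53% of ribosomal protein fragments and 2.14% of reads in Ia_high, and 4.24% of fragments and 5.49% of reads in Ia_low. Of these, 45 tags in 12 genes lay on or within 10 bases of an annotated intronic snoRNA, with 287 reads in Ia_high and 832 in Ia_low. A tag wholly inside a snoRNA gene was left out as non-coding, whereas these run past its annotated end or lie beside it. The most abundant pair is shown, with the bases inside the annotated snoRNA gene in capitals.
Rpl4 intron, Snord16a: AGAAGGTTGACGAACATTGTTACTGAGCAa
Rpl5 intron, Snord21: tGCCAATGATGACACCACACTAACTGAGC

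The Rpl4 tag, at chr9:64175493-64175522 on the plus strand, runs 1 base past Snord16a and was read 22 times in Ia_high and 348 times in Ia_low. The Rpl5 tag, at chr5:107904554-107904582 on the plus strand, had 58 and 44 reads. Rpl7a had 39 such tags outside protein_coding transcripts, with 178 and 729 reads, and Rpl10 had 33, 70.2% of its tags. For Rpl7a these tags moved the ratio from 0.961 to 1.23, as given above.

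The start of the mRNA itself was thinly covered. Tags that begin in the first 10 annotated bases made up 0.678% of placed ribosomal protein fragments in Ia_high (50 tags) and 0.887% in Ia_low (25 tags), and 0.182% and 0.199% for other, longer mRNAs. RefSeq promoter sequences (GRCm38.p6) were found for 66 of the 92 symbols. A C followed by at least 5 bases that are each C or T, on the gene's strand and beginning within 10 bases of the annotated start (a window of 26 bases), was found in 35 of them, 53.0%, beside 21.9% of all 27025 symbols. On the opposite strand the same run was found in 7.58% of the ribosomal protein promoters and 24.8% of all. The windows of 4 genes that hold the run, all among the 10 highest by level, are shown, with the run in capitals, at chr7:3704031-3704056 (plus), chr11:114668570-114668595 (plus), chr4:86857352-86857377 (minus) and chr2:180257369-180257394 (plus). A match is a description of these letters and not a mapped start.
Rps9: cttgtCTCTCTTTgtctcgggcctga
Rpl38: aagcctcgttCTTTCCCCgttctctt
Rps6: gaagtcgggCCTCTTTTTCgtgacgc
Rps21: aggacccgCCCTCCTgcccaatagtg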

How the data were processed

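The authors deposited, for each library, distinct sequences with their length and raw read count, not scaled. Per the labels' protocols, RNA under 30 bases was cut from a gel, ligated to adaptors and amplified for 12 cycles, and no molecular identifiers are named. How adaptors were trimmed and tags filtered is not stated in these sources. Exact sense matches of 20 to 30 nt tags were sought in the GENCODE M21 transcripts (GRCm38) with Python 3.11.15 (numpy 2.4.6, pandas 2.3.3, scipy 1.17.1). Tags of 1 protein-coding gene were kept, pseudogene matches were allowed, and tags that also match other non-coding genes were left out, as were 9 and 87 tags with other letters. Distinct tags per gene were divided by the library's total, with exact Clopper-Pearson 95% intervals. The intervals were tested on simulated counts, and the matching against a direct search of the deposited tags in the transcripts of ribosomal protein genes. Positions refer to 1 reference transcript per gene (best APPRIS, CCDS and support level, then the shortest). Named genes are the 10 highest levels, the 6 highest and 6 lowest ratios among genes with 50 fragments or more, paralog pairs, stalk genes, Rpsa, Rack1 and the genes of the 6 leading tags, plus up to 4 members per list. Members, lists and rules were chosen with earlier results of these data known. PCR copies are not independent molecules. Alternatives covered the measure, pseudogene and non-coding matches, lengths, transcripts, scaling and minimum. Some genes that these rules name are not reported here.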

Additional observations from a re-analysis of the deposited data

Results flagged for a closer look

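Outside the tags analysed above, ribosomal protein genes also gave tags in antisense, with 169 reads of 40 tags in Ia_high and 218 reads of 23 tags in Ia_low, more than the 3 counts that a count of 0 allows. Tags of 31 to 44 nt, longer than the stated gel size, gave 1047 reads of 216 tags in Ia_high and 6985 reads of 838 tags in Ia_low. Ribosomal protein genes made up 2.62% and 2.19% of all mRNA tags of that length, close to their share at 20 to 30 nt.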

How the results depend on the processing

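The share of ribosomal protein genes among mRNA fragments (2.29% in Ia_high and 2.15% in Ia_low) moved to 3.32% and 2.49% by reads, 0.75% and 0.725% without tags that match a pseudogene, 1.81% and 1.95% by start positions, 2.46% and 2.40% with tags of other non-coding genes kept, and 0.761% and 0.534% of all tags of 20 to 30 nt. With predicted genes (Gm numbers and -ps names) treated as pseudogenes, an alternative chosen after seeing the data, it was 2.53% and 2.37%. In Ia_high it was 2.22% at 20 to 24 nt, 2.37% at 25 to 30 nt and 2.35% with protein_coding transcripts only. The median log2 ratio was −0.40 by reads, 0.035 by start positions and −0.56 when scaled to all tags, where all genes shifted to −0.55. Genes called higher numbered 1 with tags of non-coding genes kept (Rps12) and 1 with a minimum of 1 fragment (Rpl3l). Of all genes, 6.21% and 4.35% were called higher in the same settings. Genes called lower numbered 7 by reads (Rpl13a, Rpl14, Rpl36a, Rplp1, Rplp2, Rps15a and Rps24) and 7 scaled to all tags (Rpl14, Rpl27, Rpl36a, Rplp1, Rplp2, Rps13 and Rps15a), beside 19.97% and 18.9% of all genes. They numbered 3 at 20 to 24 nt, and 1 each at 25 to 30 nt, without pseudogene matches (Rps26) and with protein_coding transcripts only. Of all genes, 6.52%, 8.77%, 9.58% and 9.56% were called lower in these settings, in the same order. The cause was not tested. Of the alternative values for these shares, medians and counts, 26 moved and 33 stayed within counting error or at a like count. No paired analysis was possible because each group has 1 library and no replicate could be left out. Genes under 10 fragments allow no statement at this depth.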
